A study of Mus musculus with 4 samples.

Results

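The open chromatin at microRNA genes was described in the lung of wild-type mouse embryos at E15.5 (embryonic days), when airways are branching and the epithelium, mesenchyme and vessels of the lung are all being laid down. The regions were chosen by position alone: the peaks of 4 deposited lists were merged, and a merged region on chromosomes 1 to 19 was taken when it lay within 5 kb of a mouse microRNA gene. This gave 2664 of 298755 merged regions, at 846 of 1090 microRNA genes. The assay was ATAC-seq, in which the transposase Tn5 cuts and tags DNA where chromatin is accessible. All libraries belong to 1 group (lung, genotype wt, E15.5), numbered as replicates 1 to 4, made from nuclei of lungs that the protocol describes as snap-frozen. No other genotype or treatment was analysed here, so every value below is a description and no group is compared with another. Nothing in the labels ties a replicate to its own embryo or litter, and the SD between replicates may therefore be technical.

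MicroRNAs are short RNAs that bind partly matching sites in messenger RNAs and lower the output of those messages. They are cut from hairpins in longer transcripts; many hairpins sit in introns of protein-coding genes or in long noncoding host transcripts, and several hairpins often share 1 transcript, which makes them a cluster. Because target choice rests mainly on the seed near the 5′ end, microRNAs with the same seed are counted as a family even when their genes lie far apart. In the developing lung the Mir17-92 cluster is known for its part in progenitor growth, the Mir200 family for the epithelial state, Mir143 and Mir145 for smooth muscle and Mir126a for endothelium.

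The mature sequences of the families on which the results turn are shown first, from the RefSeq table of build GRCm38.p6, 5′ to 3′, with the seed (bases 2 to 8) in capitals. The Mir17 family is shown because its members at Mir17-92 and at Mir25/Mir93/Mir106b all had a peak of every library within 5 kb. The Mir200 family is made of 2 seeds from a pair of clusters, both with such peaks, and its seeds differ by U4C (the base of miR-200b-3p, the position from the 5′ end of the mature sequence, then the base of miR-200a-3p). Mir126a and the Mir34 and Mir449 family stand for endothelium and multiciliated cells. The Mir29, Mir181, Mir302 and Mir290 cluster sequences are shown as the contrast, since none of the Mir29 genes, none of the 4 genes of the 2 Mir181a/Mir181b clusters and none of the genes of the Mir302 and Mir290 clusters had a peak of every library. The seed of miR-302b-3p and miR-294-3p shares the run AAGUGC with the Mir17 seed, 6 letters shifted by 1 base, the former from loci that were not open and the latter from open ones.
miR-17-5p: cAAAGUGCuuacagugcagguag
miR-20a-5p: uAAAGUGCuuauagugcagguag
miR-93-5p: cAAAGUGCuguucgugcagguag
miR-106b-5p: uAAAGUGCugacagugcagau
miR-200b-3p: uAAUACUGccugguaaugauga
miR-200c-3p: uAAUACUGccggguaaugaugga
miR-429-3p: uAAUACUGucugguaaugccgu
miR-200a-3p: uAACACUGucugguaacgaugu
miR-141-3p: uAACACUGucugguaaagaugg
miR-126a-3p: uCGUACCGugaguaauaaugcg
miR-34a-5p: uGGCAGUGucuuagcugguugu
miR-449a-5p: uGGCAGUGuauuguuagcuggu
miR-29a-3p: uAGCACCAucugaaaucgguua
miR-29b-3p: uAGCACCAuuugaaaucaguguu
miR-29c-3p: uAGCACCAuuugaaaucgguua
miR-181a-5p: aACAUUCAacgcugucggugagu
miR-181b-5p: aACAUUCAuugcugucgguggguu
miR-302b-3p: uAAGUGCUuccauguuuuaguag
miR-302d-3p: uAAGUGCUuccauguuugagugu
miR-294-3p: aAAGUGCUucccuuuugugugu
miR-295-3p: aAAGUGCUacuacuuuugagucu

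Each deposited list holds peaks with a fold enrichment over background, and read depth is not in the lists. The lists held 131449, 180007, 208926 and 187928 peaks on chromosomes 1 to 19 for replicates 1 to 4, with folds whose medians were 8.99, 3.86, 3.90 and 3.73. The shortest list, that of replicate 1, also had the highest folds. The peak names in its list contain the word Frais (French for fresh), whereas those of replicates 2 to 4 contain Frozen, so replicate and name cannot be told apart. Because folds are not on 1 scale, a peak's strength is given as its percentile among all peaks of its own library on chromosomes 1 to 19, X and Y, where 100 is the strongest. The lung label was checked against marker genes. The 9 genes marking lung epithelium, mesenchyme, smooth muscle and endothelium (Nkx2-1, Sftpc, Foxa2, Tbx4, Foxf1, Acta2, Myh11, Pecam1 and Cdh5) all had a peak of every library within 5 kb, with mean percentiles from 86.8 (Cdh5) to 97.8 (Sftpc). Around Alb, the liver albumin gene, replicate 1 alone had a peak. A peak within 5 kb is not specific to a tissue, however. Ins2, Cdx2 and Myod1, markers of pancreas, gut and skeletal muscle, also had one in every library (mean percentiles 79.8, 79.1 and 47.5). Pdx1, a marker of pancreas and gut, had one in replicates 2 to 4 (68.5, 68.9 and 45.7).

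Of the 2664 regions at microRNA genes, 752 (28.2%) held a peak of every library, beside 21.7% of all merged regions on the same chromosomes. Without replicate 1 these shares were 43.3% and 32.8%, and among peaks with a -log10 q of 5 or more 45.7% and 32.1%. Peaks of a single library made up 1060 regions (39.8%), beside 49.2% of all regions. The 752 shared regions had a median width of 2859 bp, beside 1456 bp for all shared regions, and a median strength at the percentile 86.3, beside 76.2. Outside chromosome 18, 267 of 728 shared regions (36.7%) held the annotated start of another gene, beside 19.4% of all shared regions, and their width and strength were not compared at equal promoter content. Only 285 of the 752 (37.9%) overlapped the hairpin itself. In a bulk tissue, a gene that is open in few cells and a gene that is weakly open in many cells cannot be told apart.

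A microRNA gene is called open here when each of the 4 libraries had a peak of its own overlapping the gene or the 5 kb on either side. The share of genes with a peak was 60.1%, 67.1%, 69.4% and 67.9% in replicates 1 to 4 (66.1% ± 4.12, SD, n = 4), lowest in replicate 1 and close together in the others. By this rule 592 of 1090 genes (54.3%; 95% Wilson interval 51.3 to 57.2) were open, 244 (22.4%; 20.01 to 24.95) had no peak in any library, and 254 had a peak in 1 to 3 libraries. The same windows moved 50 kb down or up the chromosome were open in 42.9% and 47.9% of cases, windows around the starts of protein-coding genes in 73.3%, and those around the starts of long noncoding RNA genes in 53.9%. MicroRNA windows therefore stood at the level of noncoding starts and well below coding starts. The intervals cover counting error only, and neighbouring genes share windows.

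**Figure D1:**
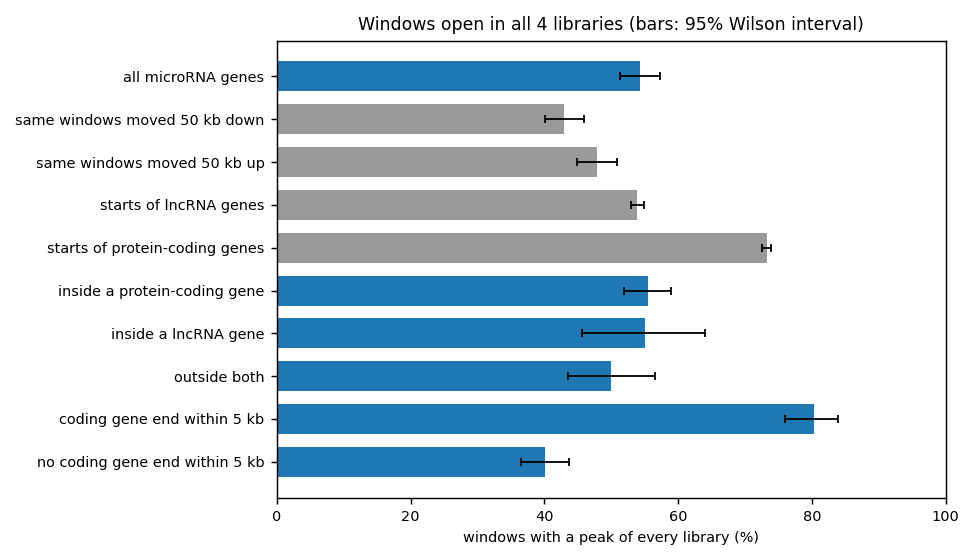
Share of windows (horizontal axis, percent) that held a peak of every library, for all microRNA genes and classes of them (blue) and for other windows (grey), with 95% Wilson intervals. MicroRNA genes with an end of a protein-coding gene within 5 kb reached 80.3%, while those without one stood at 40.1%. The moved windows drawn include those with a coding end. Moved windows without one, not drawn, were open in 35.0% (down) and 38.2% (up).

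Of the properties examined here, a nearby end of a protein-coding gene moved most with the share. A coding gene began or ended within 5 kb of 386 microRNA genes, of which 310 (80.3%) were open and 13 had no peak. Among the 704 others, 282 (40.1%; 36.5 to 43.7) were open and 231 had no peak. Windows moved 50 kb down or up contained a coding end in 236 and 270 cases, and were then open in 71.6% and 77.4%. With no coding end, the moved windows were open in 35.0% and 38.2%. One cluster of 71 genes with no peak weighs on these shares, and without it the microRNA windows with no coding end were open in 44.5% (40.7 to 48.4), beside 36.5% (33.2 to 40.0) and 40.5% (37.0 to 44.0) for the moved ones. The interval for microRNA windows overlapped that of the windows moved up and did not overlap that of the windows moved down.

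With all genes counted, the share differed little with the host gene. Of microRNA genes inside a protein-coding gene 420 of 757 (55.5%) were open, of those inside a long noncoding gene 60 of 109 (55.0%), and of those outside both 112 of 224 (50%). Without the 71-gene cluster the first of these became 420 of 686 (61.2%; 57.5 to 64.8), above the interval of genes outside both (43.5 to 56.5). Genes alone in their cluster were open in 452 of 777 cases (58.2%), and genes in clusters of 2 or more in 140 of 313 (44.7%), or 140 of 242 (57.9%) without that cluster. By the number in the gene symbol, which follows the order of registration, the open share was 61.9% above 1500, 33.8% above 500 and up to 1500, and 48.8% up to 500. A coding end lay within 5 kb of 43.0%, 21.8% and 27.2% of these genes, in the same order. Without the 71-gene cluster the open shares were 61.9%, 43.3% and 55.6%.

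Open chromatin was most frequent at the hairpin and fell off more slowly upstream than downstream. For the 937 genes with an annotated strand, the share with a peak of every library in a 250 bp bin was 17.7%, 17.9% and 17.7% in the 3 bins from -500 to 250 bp around the middle of the hairpin, and averaged 12.2% over the 5 kb upstream and 10.1% over the 5 kb downstream. Genes with a coding end nearby had the higher shares, with 32.4% in both bins from -500 bp to 0. Genes without one reached 8.98% from -250 bp to 0 and averaged 6.68% upstream and 5.79% downstream. The summit of the strongest peak gave a similar picture. Of 407 open genes with a known strand and that summit within 5 kb in every library, it lay upstream in every library for 225 and downstream in every library for 122. With no coding end nearby the split was 87 upstream and 67 downstream of 192.

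**Figure D2:**
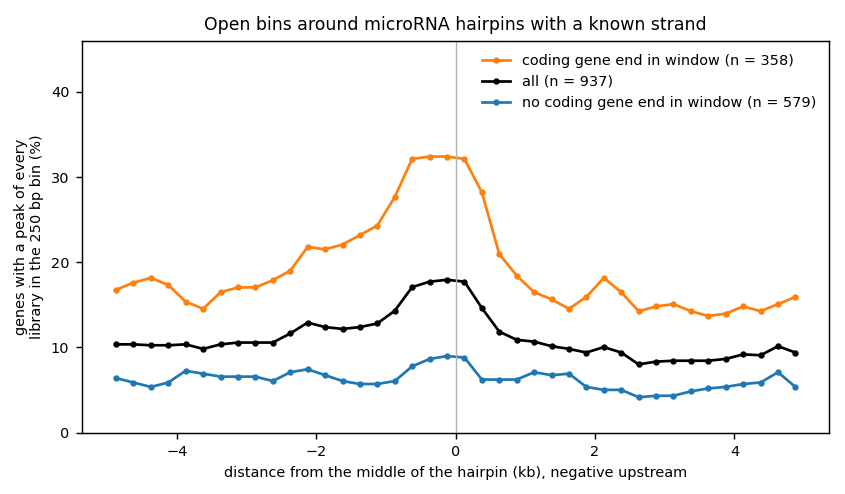
Share of microRNA genes (vertical axis, percent) with a peak of every library in each 250 bp bin, by distance from the middle of the hairpin in kb (negative is upstream), for genes with a known strand. The line for genes with a coding gene end nearby peaks at 32.4% around the hairpin, and the line for genes without one peaks at 8.98%.

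MicroRNA genes were chained into 858 clusters by gaps of at most 10 kb, a gene alone being a cluster of 1. All 4 libraries had a peak at 510 clusters (59.4%; 56.1 to 62.7), and 152 (17.7%) had none. Among the 81 clusters of 2 or more genes, 58 (71.6%; 61.0 to 80.3) were open and 15 (18.5%) had no peak. The 77 clusters taken from 13 lists of microRNAs known for a cell type or role comprised 48 open ones, 17 with a peak in 1 to 3 libraries and 12 with none, a split close to that of all clusters (510, 196 and 152). The strongest peaks of open clusters were also alike, with a median percentile of 89.9 in the lists and 89.8 over all.

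**Figure D3:**
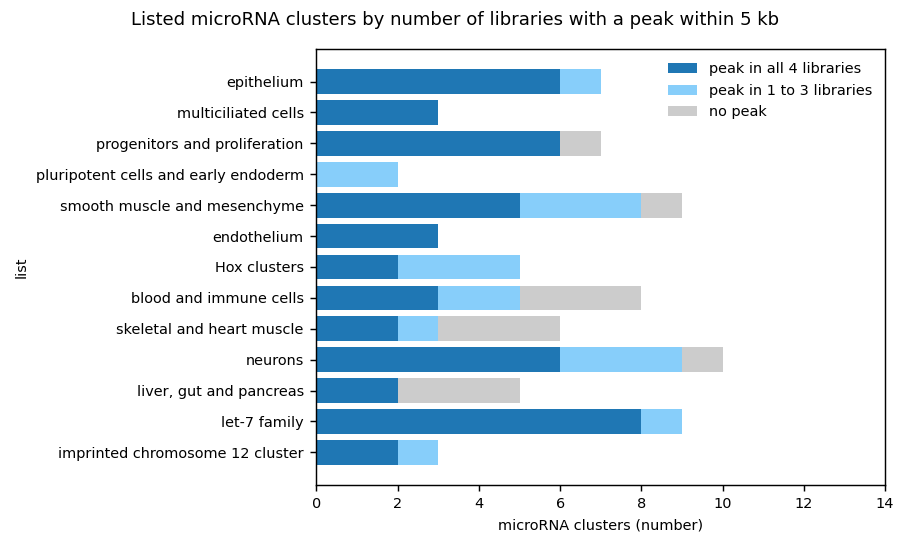
Number of microRNA clusters (horizontal axis) in each of 13 lists, divided into those with a peak of all 4 libraries, of 1 to 3 libraries, and of none. Clusters known from epithelium, multiciliated cells, endothelium and the let-7 family are mostly dark blue, while muscle, blood, liver and gut clusters include the most grey.

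The clusters known for progenitors and proliferation were open in 6 of 7 cases, with mean percentiles from 92.9 to 98.7. Mir17-92 (Mir17, Mir18, Mir19a, Mir20a, Mir19b-1 and Mir92-1; chromosome 14, 115043671 to 115044506, plus strand, with Mir19b-1 and Mir92-1 inside the annotated noncoding gene Mir17hg), which promotes cell proliferation, had its strongest peak at the percentiles 95.7, 96.6, 97.0 and 97.4 in replicates 1 to 4 (96.7 ± 0.74, SD, n = 4). The 4 libraries lay within 2 percentile points of one another. The summit of that peak was at -2913 to -2847 bp, upstream of the cluster. The shared region, merged over the libraries, ran from 115039672 to 115044585, but the libraries differed over the hairpins. Peaks overlapped all 6 hairpins in replicate 3, all except Mir92-1 in replicate 2, and Mir17 and Mir18 alone in replicate 4. The peak of replicate 1 ended at -797 bp and overlapped no hairpin. Mir25/Mir93/Mir106b, the related cluster in an intron of Mcm7 (chromosome 5, 138165321 to 138165818, minus strand), had the percentiles 97.3, 99.0, 99.0 and 98.7 (98.5 ± 0.80). Its strongest summit lay at -6174 to -5369 bp, at the shared start of Mcm7, a replication licensing factor, and Ap4m1, and thus outside the 5 kb, with the peak reaching in. With a reach of 2 kb its mean percentile was 69.3.

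The remaining proliferation clusters had strong peaks in 4 cases and none in 1. Mir130a (chromosome 2) reached 98.3, 98.8, 99.0 and 98.9 (98.7 ± 0.30), with the summit at -2665 to -2630 bp, and all libraries agreed closely. Mir21a, inside Vmp1 on chromosome 11, reached 92.7, 94.98, 94.6 and 95.7 (94.5 ± 1.27), its summit at -2958 to -2897 bp. Mir130b/Mir301b reached 92.9 ± 2.73 at the start of 2610318N02Rik. The pair Mir15b/Mir16-2 inside Smc4, a condensin subunit (chromosome 3), reached 92.2, 96.8, 96.8 and 96.8, but its summit lay at -5189 to -4987 bp and within 5 kb in 1 library alone. The sister pair Mir16-1/Mir15a in the noncoding gene Dleu2 (chromosome 14, 61631880 to 61632110), known for restraining the cell cycle, had no peak in any library, and the nearest peak was 7175 bp away.

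Epithelial clusters were open in 6 of 7 cases, with mean percentiles from 84.1 to 97.8, and replicate 1 gave the lowest value in all 6. The Mir200b/Mir200a/Mir429 cluster (chromosome 4, 156053905 to 156055750, minus strand), which keeps epithelial cells from mesenchymal change by acting on Zeb factors, had the percentiles 94.8, 98.8, 98.7 and 98.8 (97.8 ± 1.96). Its strongest summit lay at -4181 to -4146 bp at the start of the noncoding gene Gm13648, in a shared region from 156058761 to 156061727 that did not include the hairpins. As the map of peaks shows, weaker peaks overlapped every hairpin in replicates 3 and 4, and Mir200b and Mir200a in replicate 2. In replicate 1 a weaker peak lay between Mir200b and Mir200a and overlapped no hairpin. With a reach of 2 kb the mean percentile was 69.9. The second cluster of the family, Mir141/Mir200c (chromosome 6, 124717914 to 124718390, minus strand), had 75.0, 99.1, 99.1 and 99.3 (93.1 ± 12.1). Here the libraries did not show the same peak: replicate 1 had its summit at -525 bp, just upstream, whereas in replicates 2 to 4 the strongest peak had its summit at 5693 to 5726 bp, at the start of Emg1 and Phb2, outside the 5 kb.

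At the other open epithelial loci replicate 1 was again the lowest. Mir375, found in neuroendocrine and secretory cells (chromosome 1), had 82.9, 93.1, 93.5 and 94.8 (91.1 ± 5.49), with summits at -289 to -190 bp. Mir203 (chromosome 12), which limits the renewal of stratified epithelium, had 79.8, 93.2, 93.0 and 94.1 (90.05 ± 6.84). Its strongest summit lay at -185 and -187 bp in replicates 1 and 2, but at -4830 and -4806 bp in replicates 3 and 4. Mir183/Mir96/Mir182 (chromosome 6), the sensory and epithelial cluster, reached 89.8 ± 6.65 at the start of its host Mirc35hg, and Mir205, a basal cell microRNA on chromosome 1, 84.1 ± 8.99 at the start of Mir205hg. In each of these, the percentiles of replicates 2 to 4 lay close together and above that of replicate 1, though at Mir203 with different strongest summits. Mir31 on chromosome 4 was the exception, with a weak peak of replicate 1 alone (percentile 6.86).

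The 3 multiciliated clusters, each with a member that carries the seed GGCAGUG, were all open. Mir449a/Mir449b/Mir449c (chromosome 13, inside Cdc20b), needed with the Mir34 genes for basal body multiplication, had 85.9, 92.1, 92.7 and 91.1 (90.4 ± 3.08), with the summit between the first and last hairpin and within 1 kb of an annotated Cdc20b start. Mir34a had 83.3, 91.8, 88.8 and 92.4 (89.1 ± 4.16). Mir34b/Mir34c was weaker and more variable, at 18.1, 61.2, 75.0 and 70.8 (56.3 ± 26.1). Replicate 1 was again the lowest at all 3.

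Over all clusters the lower rank of replicate 1 was general but uneven. It gave the lowest percentile at 407 of 510 open clusters (79.8%) and at 601 of 752 shared microRNA regions (79.9%), beside 61.2% of all shared regions. The median of replicate 1 minus the mean of the others was -6.51 percentile points over the shared microRNA regions, beside -5.93 over all shared regions. Over the open clusters, measured by the strongest peak of a window, it was -5.07. By list it was lowest for neurons (-27.0), liver, gut and pancreas (-22.4) and skeletal and heart muscle (-21.7). It was -13.5 over the 6 epithelial clusters, -9.67 over the endothelial ones and 0.58 over the imprinted ones of chromosome 12. Over the 5 clusters of smooth muscle and mesenchyme, of which 3 lie near the top of the scale, it was -0.05. Replicate 1 was still the lowest at 3 of those 5, with Mir140 and Mir199a-1 far below the other libraries (39.2 beside 71.1 to 76.4, and 54.6 beside 68.5 to 81.8). Whether the handling named in the peak lists, the number of peaks or the makeup of the tissue piece has a part in this was not tested.

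**Figure D4:**
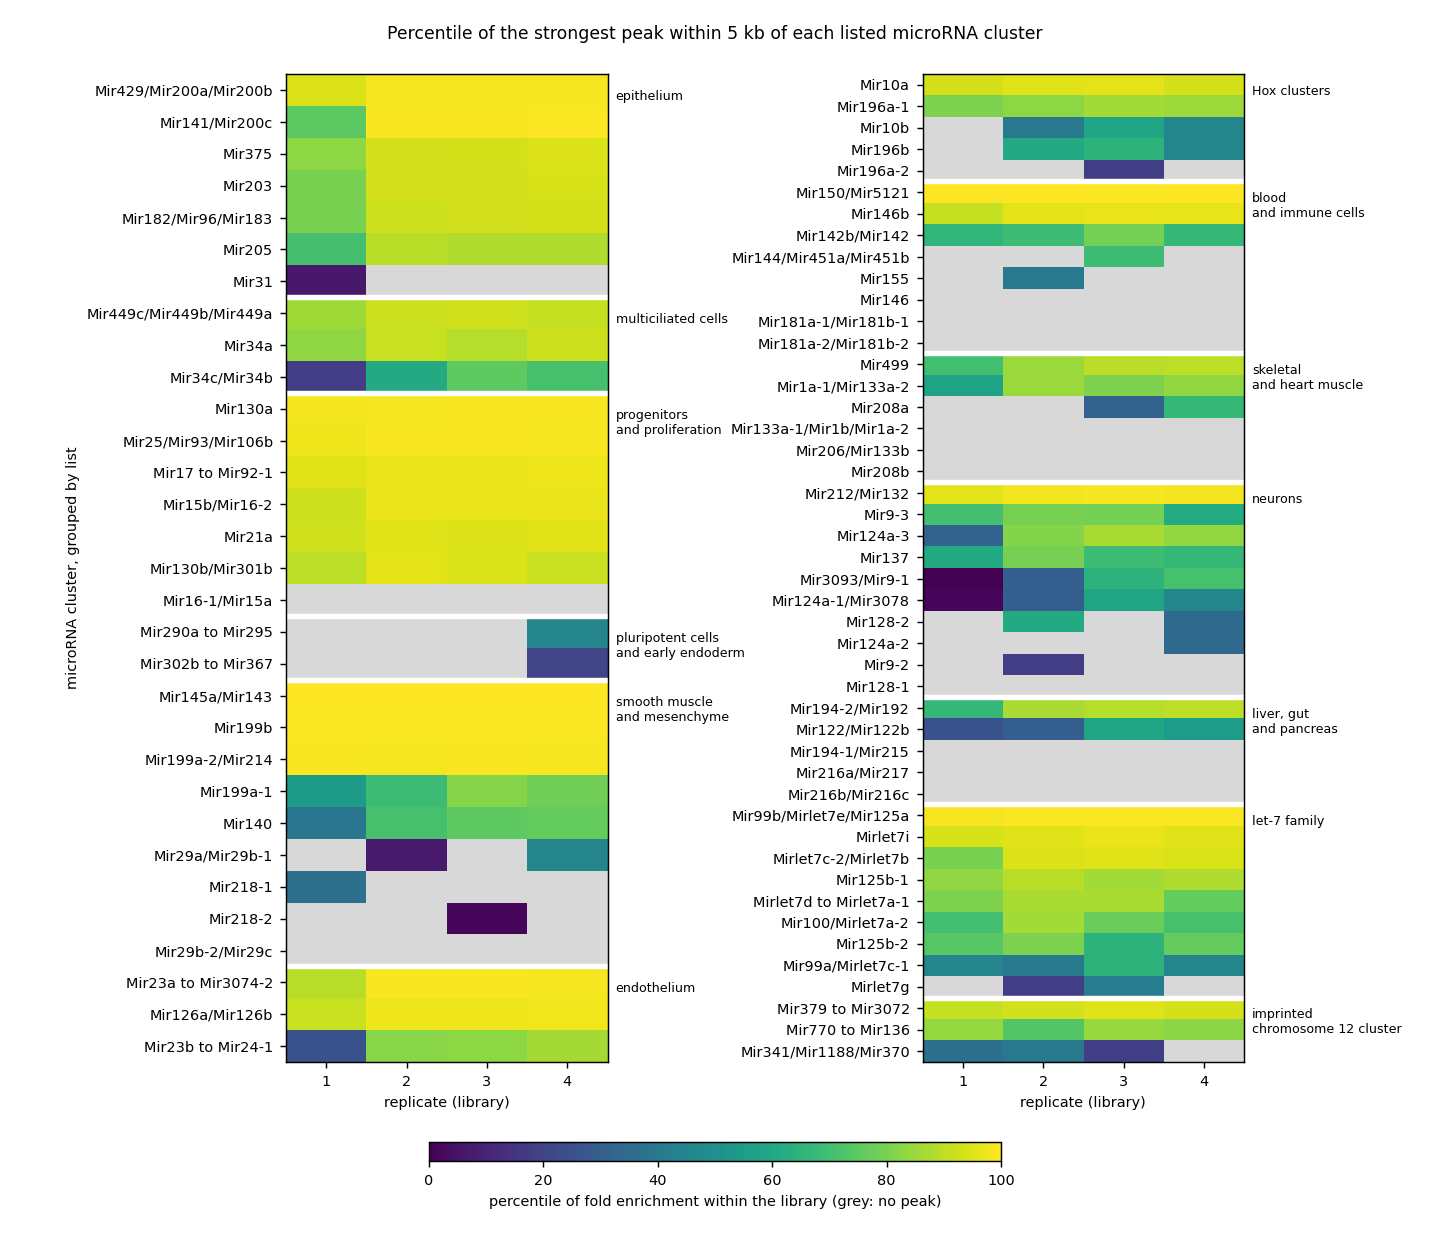
Percentile of the strongest peak within 5 kb of each of the 77 listed clusters (rows) in each library (columns), from 0 in dark purple to 100 in yellow, with grey for no peak. Mir143/Mir145a, Mir199b and Mir199a-2/Mir214 are at 98.8 or above in every library, epithelial rows are nearer yellow in replicates 2 to 4 than in replicate 1, and 12 rows are grey throughout.

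**Figure D5:**
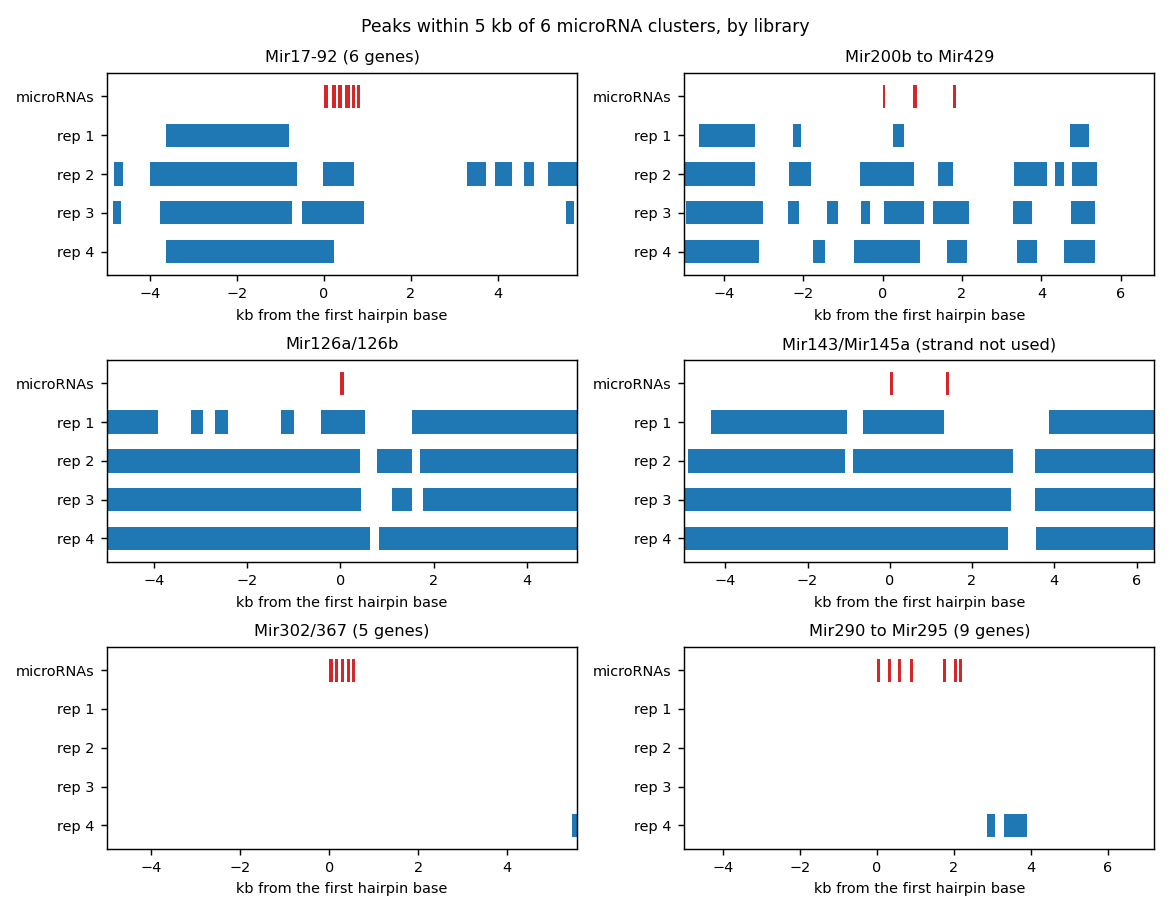
Peaks of each library (blue) within 5 kb of 6 clusters, with the hairpins in red, by distance in kb from the first hairpin base, the Mir143/Mir145a map running along the chromosome coordinate. Mir17-92, Mir200b/Mir200a/Mir429, Mir126a/Mir126b and Mir143/Mir145a have peaks in every row, and the 2 clusters of pluripotent cells have them in replicate 4 alone.

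Endothelial clusters were open in 3 of 3 cases. Mir126a/Mir126b (chromosome 2, 26591357 to 26591429), which lies in an intron of Egfl7, a gene of endothelial cells, and supports vessel integrity, had the percentiles 91.7, 97.5, 97.5 and 97.9 (96.2 ± 2.98). Peaks covered 63.4%, 94.6%, 91.2% and 98.0% of its window, within a shared region of 26569126 to 26591985. The strongest summit was at -4658, -4511 and -4522 bp, near an Egfl7 start, in replicates 1, 2 and 4, and at -17836 bp in replicate 3, negative values being lower coordinates. Mir23a/Mir27a/Mir24-2 had 89.2, 99.0, 99.0 and 98.7 (96.5 ± 4.83), but the summit in replicates 2 to 4 was at -10029 to -9977 bp, outside the window. The paralogous Mir23b/Mir27b/Mir24-1 inside Aopep was lower, at 25.2, 82.3, 82.9 and 86.7 (69.3 ± 29.4), and replicate 1 stood far below the rest.

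Smooth muscle and mesenchyme clusters held both some of the strongest peaks of the lists and several loci with few. Mir143/Mir145a (chromosome 18, 61647825 to 61649258, in the noncoding gene Carmn), which favours the contractile state of smooth muscle, had folds of 368.1, 87.0, 92.2 and 77.8 and the percentiles 99.9, 99.7, 99.8 and 99.6 (99.7 ± 0.11). Replicate 1 was the highest here, and all libraries agreed within 1 point. Peaks covered 68.5%, 93.0%, 94.8% and 93.9% of the window, and the strongest summit lay at 4244 to 4267 bp beyond the end with the higher coordinate, in a shared region of 61651344 to 61662944. Mir199a-2/Mir214 (chromosome 1) in Dnm3os, a noncoding RNA of mesenchyme, had 99.0, 98.8, 98.9 and 98.8 (98.9 ± 0.11), with the summit at -269 to -237 bp at the start of Dnm3os. Mir199b (chromosome 2, inside Dnm1) had 99.3, 99.4, 99.4 and 99.3 (99.3 ± 0.03), with the summit at -282 to -261 bp. So near the top of the scale a percentile can vary little, and the small SDs of these 3 loci are no sign of stability.

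Mir199a-1, in an intron of Dnm2, was weaker (70.8 ± 12.2), as was Mir140, a cartilage microRNA inside Wwp2 (39.2, 71.1, 75.0 and 76.4, mean 65.4 ± 17.6). The Mir29 genes, known for lowering collagen messages, had no open cluster. Mir29a/Mir29b-1 had a peak in replicates 2 and 4 (percentiles 7.36 and 45.7), and Mir29b-2/Mir29c had none, the nearest being 10687 bp away. Mir218-1 and Mir218-2, hosted by the guidance genes Slit2 and Slit3, each had 1 peak in 1 library, replicate 1 (36.8) and replicate 3 (1.35).

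The 2 clusters of pluripotent cells and early endoderm, which hold the 5 genes with the seed AAGUGCU, were not open. Mir302b to Mir367 (chromosome 3, 127545228 to 127545807) had a single weak peak, in replicate 4 (percentile 21.1), with its summit 4895 bp downstream. Mir290a to Mir295 (chromosome 7, 3218626 to 3220841) also had peaks in replicate 4 alone (45.7). In the other libraries neither window held any peak.

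Hox-cluster microRNAs were open in 2 of 5 cases. Mir10a next to Hoxb4 had 93.5, 95.2, 95.9 and 93.5 (94.5 ± 1.24), and Mir196a-1 in the Hoxb cluster 80.5, 83.0, 86.2 and 85.3 (83.8 ± 2.55). Mir10b (Hoxd) and Mir196b (Hoxa) lacked a peak in replicate 1 alone, with percentiles of 40.6 to 58.9 and 45.7 to 64.6 in the rest. Mir196a-2 in the Hoxc cluster had a peak of replicate 3 alone (18.4).

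Blood and immune clusters were open in 3 of 8 cases and had no peak in 3. Mir150/Mir5121 (chromosome 7) gave the highest mean percentile of any cluster of 2 or more genes, 99.8, 99.9, 99.9 and 99.8 (99.9 ± 0.02), but the summit lay at the start of Rpl13a, a ribosomal protein gene that every cell uses. Mir146b had 94.9 ± 2.62, at the start of Cuedc2. Mir142, the blood lineage microRNA, had 65.9, 68.5, 79.0 and 66.7 (70.0 ± 6.10), away from any annotated start. Mir155 had a peak in replicate 2 alone (40.6) and the erythroid Mir144/Mir451a in replicate 3 alone (68.9). Mir146, Mir181a-1/Mir181b-1 and Mir181a-2/Mir181b-2 had no peak, and the nearest lay 10448, 23920 and 10024 bp away.

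Skeletal and heart muscle clusters were open in 2 of 6 cases. Both had lower mean percentiles than the 6 open epithelial clusters, but Mir499 was within its SD of the lowest of those, Mir205 (84.1 ± 8.99). Mir1a-1/Mir133a-2 (chromosome 2) had 58.2, 85.0, 80.5 and 83.6 (76.8 ± 12.6), and Mir499, inside the myosin gene Myh7b, 83.5 ± 9.52. Mir133a-1/Mir1b/Mir1a-2 (chromosome 18), Mir206/Mir133b (chromosome 1) and Mir208b (inside Myh7) had no peak in any library, with the nearest 41060, 6630 and 11904 bp away. Mir208a, inside the heart myosin gene Myh6, had peaks of replicates 3 and 4 (30.9 and 66.7).

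Liver, gut and pancreas clusters were open in 2 of 5 cases. Mir194-2/Mir192 (chromosome 19) had 66.6, 87.4, 88.8 and 89.8 (83.2 ± 11.1). Mir122, the main liver microRNA (chromosome 18), had weak peaks of 25.2, 30.0, 58.9 and 54.7 (42.2 ± 17.1) that were not kept in every library among peaks with a -log10 q of 5 or more. Mir194-1/Mir215, Mir216a/Mir217 and Mir216b/Mir216c had no peak, and the 2 pancreatic pairs stood 48078 and 52622 bp from the nearest.

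Clusters known from neurons were open in 6 of 10 cases, but 5 of the 6 had mean percentiles between 34.0 and 72.5. Mir212/Mir132 was the strong one, at 95.8, 98.2, 99.0 and 98.2 (97.8 ± 1.37), and its strongest summit lay more than 5 kb away, at the start of Ovca2. Mir9-3 had 72.5 ± 8.50, Mir124a-3 70.8 ± 26.3 and Mir137 69.0 ± 7.64. Mir9-1 (0.25, 30.0, 64.6 and 70.8) and Mir124a-1 (1.39, 30.0, 58.9 and 45.7) ranged from the weakest peaks of replicate 1 to middling ones in the others, and both left the open set among peaks with a -log10 q of 5 or more. Mir128-1 had no peak.

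The let-7 family, which rises as cells differentiate, was open in 8 of 9 clusters taken with the Mir99, Mir100 and Mir125 genes that share its transcripts. Not all 8 were open at a let-7 gene. Mir125b-1 and Mir125b-2 stood as clusters without one, and Mirlet7c-1, beside the open Mir99a, had no peak. Mirlet7d/Mirlet7f-1/Mirlet7a-1 was open at Mirlet7d alone, with the strongest summit at 5071 to 5090 bp, outside the 5 kb. Its other 2 genes had a peak in 1 library. Mir99b/Mirlet7e/Mir125a (chromosome 17) had 98.6, 99.4, 99.3 and 99.5 (99.2 ± 0.42), and let-7i (chromosome 10) 94.0, 95.6, 97.1 and 95.4 (95.5 ± 1.27), with its summit at -513 to -362 bp. The percentiles of the libraries were close at both. At Mir99b/Mirlet7e/Mir125a, however, the strongest peak was not the same in all libraries. Its summit lay at -3212 and -3208 bp from Mir99b in replicates 1 and 4. In replicates 2 and 3 it lay at 7351 and 7366 bp from Mir125a, outside the 5 kb. Mirlet7c-2/Mirlet7b had 80.1, 94.7, 95.1 and 94.5 (91.1 ± 7.37), while Mir99a/Mirlet7c-1 was weak (49.1 ± 10.6), with its summits near the 5 kb limit, and Mirlet7g had peaks in replicates 2 and 3 alone.

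The imprinted microRNAs of chromosome 12 form the largest array with peaks. Mir379 to Mir3072, 39 genes of which those at the end with the higher coordinate lie in the noncoding gene Mirg, had 91.2, 93.2, 95.03 and 93.5 (93.2 ± 1.58), and 14 of the 39 were open. Mir770 to Mir136, 16 genes around Meg3 and Rtl1, had 84.1, 73.3, 84.7 and 82.6 (81.2 ± 5.33), with 6 of 16 open. Mir341/Mir1188/Mir370 in Rian lacked a peak in replicate 4. In both open arrays the strongest peak lay beyond the end with the higher coordinate, by 720 to 937 bp at Mir770 to Mir136 and by 1431 to 2000 bp at Mir379 to Mir3072.

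The largest cluster of all was the opposite case. Mir466m to Mir669h, 71 genes inside Sfmbt2 on chromosome 2 (10466663 to 10518279), had no peak in any library, and the nearest lay 11506 bp from the array. No hairpin sequence of this cluster was at hand, and how well reads can be placed in it was not checked. Its lack of peaks is therefore not read as closed chromatin. The other clusters of 3 genes with no peak were Mir30c-1/Mir30e/Mir30f inside Nfyc (chromosome 4, 120769534 to 120772697), with the nearest peak 13051 bp away, and Mir133a-1/Mir1b/Mir1a-2.

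The strongest regions were mostly shared with promoters. Mir7054 at Rras and Scaf1, Mir210, the hypoxia microRNA, at Lmntd2 and Rassf7, Mir22 at its host Mir22hg, and Mir7009 at Anxa5 had region percentiles of 99.97, 99.92, 99.89 and 99.89, and all 4 regions overlapped the hairpin. The very highest, at Mir101c (chromosome 9, 3000578 to 3037862, 37285 bp wide, percentile 99.995), lies at the start of the assembled chromosome and holds no annotated start. Its strongest summit was 14523 to 14528 bp from the hairpin in all libraries, and with the summit required inside the window Mir101c was not open. Regions prone to mapping errors were not filtered out here, and whether the signal at Mir101c comes from open chromatin was not tested. Among single microRNA genes outside the lists and away from coding ends, Mir7240 in Mast3 (99.2 ± 0.48), Mir7083 in Dock6 (98.9 ± 0.50), Mir6945 in Pdlim7 (98.9 ± 0.27) and Mir6939 in Akt1 (98.7 ± 0.41) followed it. With a reach of 2 kb Mir7083 had a mean percentile of 56.6 and Mir6945 one of 85.1. Of clusters of 2 or more genes, Mir497b/Mir497/Mir195a on chromosome 11 (99.3 ± 0.16, at the start of 0610010K14Rik) stood among the 5 highest, with Mir150/Mir5121, Mir143/Mir145a, Mir99b/Mirlet7e/Mir125a and Mir199a-2/Mir214.

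At the level of seeds, 20 seeds were carried by 4 or more genes with a mature sequence in the table (923 of 1090 genes matched). In 4 of them every gene was open, among them AAAGUGC (Mir17, Mir20a, Mir93 and Mir106b), GGCAGUG (Mir34a, Mir34b, Mir449a and Mir449c) and CCCUGAG (5 genes with Mir125a, Mir125b-1 and Mir125b-2). In 2 of them no gene was open: AAGUGCU (Mir302b, Mir302d, Mir291a, Mir294 and Mir295) and AGCACCA (the 4 Mir29 genes). Families with more loci were mixed, with 6 of 11 genes open for the let-7 seed GAGGUAG, 4 of 10 for the Mir15 and Mir16 seed AGCAGCA and 2 of 6 for the Mir181 seed ACAUUCA, where Mir181c and Mir181d were open and the other 4 genes had no peak. Over all microRNA genes 54.3% were open, and the split of seeds that this share alone would give was not worked out. Genes of 1 cluster share their regions, so these counts are not independent.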

How the data were processed

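ATAC-seq peaks of 4 wild-type lung libraries were used as deposited, in the mm10 build. Per the submitters' processing notes the tools were MACS3 3.0.1, Bowtie2 2.5.2, bedtools 2.31.0, SAMtools 1.18, deepTools, Trim Galore and FastQC 0.12.1. Their roles, order and parameters are not given in the sources used here. Each deposited list gives, by the authors' peak caller, a fold enrichment (a ratio), a p-value and a q-value as −log10, and a summit, and each peak's values are the authors' own. The deposited score column was not used. The lowest −log10 q in the 4 deposited lists was 1.87, 1.39, 1.47 and 1.32.

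Peaks were merged where they overlapped, with Python 3.11.15, pandas 2.3.3 and numpy 2.4.6 (intervals with scipy 1.17.1, figures with matplotlib 3.10.9). MicroRNA genes came from RefSeq GRCm38.p6 (biotype miRNA, symbol beginning Mir), and 153 of them have no strand there. Protein-coding genes without strand (4205) were left out of the share of open starts. A distance is negative upstream where the strand of a whole cluster is known, and otherwise negative towards lower coordinates. Tied folds share an average rank. The scripts were tested on simulated peaks. The members and lists were chosen with earlier results of these data known. Named are the clusters of the 13 lists (167 genes, all matched), the 5 strongest and the 5 largest peakless clusters of 2 or more genes, the 5 strongest single genes outside the lists and away from coding ends, and the 5 strongest regions. No comparison between groups was tested, since there is 1 group, and library values were checked for outliers with Dixon's ratio. Alternatives changed the threshold, list length, reach, summit rule, libraries required and clustering gap.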

Additional observations from a re-analysis of the deposited data

Results flagged for a closer look

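Of 56 groups of 4 library values tested for 1 value far from the others, 17 gave one, and all 17 were the low value of replicate 1. Chance flags about 1 in 20 groups of 4 independent values from a normal distribution. Percentiles of a strongest peak end at 100 and need not follow that rate, so 17 of 56 is not weighed against it. The groups share their libraries, so they are not independent. The percentile of the strongest peak in replicate 1, beside the range of replicates 2 to 4, was as follows. At epithelial loci it was 82.9 for Mir375 (93.1 to 94.8), 70.7 for Mir205 (87.9 to 89.7), 94.8 for Mir429/Mir200a/Mir200b (98.7 to 98.8) and 75.0 for Mir141/Mir200c (99.1 to 99.3). It was 79.8 both for Mir182/Mir96/Mir183 (92.4 to 93.5) and for Mir203 (93.0 to 94.1). At endothelial loci it was 91.7 for Mir126a/Mir126b (97.5 to 97.9), 89.2 for Mir23a/Mir27a/Mir24-2 (98.7 to 99.0) and 25.2 for Mir23b/Mir27b/Mir24-1 (82.3 to 86.7). At muscle, cartilage and neuronal loci it was 58.2 for Mir1a-1/Mir133a-2 (80.5 to 85.0), 39.2 for Mir140 (71.1 to 76.4) and 31.4 for Mir124a-3 (81.4 to 86.8). It was 92.2 for Mir15b/Mir16-2 (96.8 in each other library), 80.1 for Mirlet7c-2/Mirlet7b (94.5 to 95.1), 66.6 for Mir194-2/Mir192 (87.4 to 89.8), 91.0 for Mir146b (95.8 to 96.7) and 99.9866 for Mir101c (99.9979 to 99.9986).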

How the results depend on the processing

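The shares are given in the order regions open, genes open, clusters open and genes with no peak (28.2%, 54.3%, 59.4% and 22.4% as reported). With a −log10 q of at least 5 they were 45.7%, 46.7%, 51.0% and 34.7%. A reach of 2 kb gave 34.9%, 38.8%, 42.4% and 31.7%, and one of 10 kb gave 25.4%, 69.4%, 73.8% and 16.7%. Asking for 3 libraries gave 44.6%, 63.0% and 68.6%, and 30.6% of genes had a peak in at most 1 library. Lists of equal length gave 36.9% of regions open and 27.3% of genes with no peak. With the summit inside the window 50.8% of genes and 55.8% of clusters were open. Leaving out each replicate in turn gave 30.6% to 43.3%, 54.7% to 61.1%, 59.9% to 66.4% and 23.8% to 25.1%, and the highest open shares came without replicate 1. With fewer libraries required, the last 3 of these shares could only stay or rise, so they are no check of the result. Away from coding gene ends 40.1% of genes were open, and without the 71-gene cluster, an alternative chosen after seeing the data, 58.1%. Of the 54 named open clusters, 50 were still open at the stricter q, 45 at 2 kb, 49 with the summit inside and 54 in every leave-one-out. At 10 kb 12 more became open, among them Mir302b to Mir367, Mir29a/Mir29b-1 and Mir194-1/Mir215. The causes were not tested. No paired analysis was possible because there is 1 group. Depth is unknown, so a window without a peak may hold openness below the callers' threshold.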

Other observations

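Several mature microRNAs are made with the same sequence from loci in different places, so that their loci can be described separately where the mature form cannot. In the RefSeq sequences, 34 sets of genes (72 genes) share a mature sequence across 2 or more clusters. All copies were open in 11 sets, some in 9 and none in 14. Over all microRNA genes 54.3% were open, and over all clusters 59.4%. The split of sets that these shares alone would give was not worked out. Mir16-2, beside Mir15b in the cell division gene Smc4, was open, and Mir16-1, beside Mir15a in Dleu2, had no peak, although both give the same miR-16-5p. In the same way Mir194-2 was open and Mir194-1 had no peak, Mirlet7c-2 was open and Mirlet7c-1 had no peak, and Mir196a-1 was open while Mir196a-2 had a peak in 1 library. Mir9-1 and Mir9-3 were open, and Mir9-2 had a peak in 1 library. All copies were open for miR-125b-5p, miR-24-3p, miR-26a-5p, miR-365-3p and the 3 genes of miR-199a-3p. No copy was open for miR-29b-3p, miR-30c-5p, miR-103-3p, miR-128-3p, miR-138-5p, miR-181a-5p and miR-218-5p.

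Many windows that were open in 3 libraries lacked replicate 1. Of 95 genes with a peak in 3 libraries, replicate 1 was the missing one for 74, and replicates 2 to 4 for 9, 4 and 8. The strongest peak of an open gene had a median width of 960 bp in replicate 1 and of 2136.5, 2339 and 2597 bp in the others. The strongest summit lay inside the window in every library for 451 of 592 open genes (76.2%), and within 1 kb of the annotated start of a longer gene in every library for 173 of 571 open genes outside chromosome 18 (30.3%).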
